A study of Homo sapiens with 16 samples.

Results

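The BCL2 family of apoptosis regulators was followed in DU145, a long-established line of human prostate cancer cells, through 10 of its genes: BCL2, BCL2L1, MCL1, BAX, BAK1, BAD, BID, BCL2L11, BBC3 and PMAIP1. They were taken by name from 64792 gene identifiers, and all 10 were among the 14690 genes with enough counts to test. Polyadenylated RNA was sequenced in 16 libraries, 4 for each of 4 groups: lactate together with I-BET762, lactate alone, I-BET762 alone, and control cells. I-BET762 is a small molecule that occupies the bromodomains of BET proteins, which read acetylated histones. Per the labels the replicates were independent, and neither dose nor duration is stated for a treatment. For the group given both treatments, the line numbers in the cell line field differ from the DU145 of the titles, and the titles were followed.

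The BCL2 family decides whether the outer mitochondrial membrane stays intact when a cell is stressed. The guardians BCL2, BCL-XL (the long product of BCL2L1) and MCL1 hold the pore formers BAX and BAK1 in check, and the BH3-only proteins BAD, BID, BIM (BCL2L11), PUMA (BBC3) and NOXA (PMAIP1) bind the guardians or activate the pore formers. Once the membrane is permeable, cytochrome c meets APAF1 and starts the caspase cascade. Much of this control lies in protein binding, splicing, phosphorylation and turnover, which transcript counts do not show. DU145 cells are known to lack BAX protein because of mutations in the BAX coding sequence.

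The guardians lie on GRCh38 at chr18:63123346-63320128 (BCL2, ENSG00000171791, minus strand), chr20:31664452-31723989 (BCL2L1, ENSG00000171552, minus strand) and chr1:150574551-150579738 (MCL1, ENSG00000143384, minus strand). The pore formers lie at chr19:48954815-48961798 (BAX, ENSG00000087088, plus strand) and chr6:33572547-33580293 (BAK1, ENSG00000030110, minus strand). The BH3-only genes lie at chr11:64269830-64284704 (BAD, ENSG00000002330, minus strand), chr22:17734138-17774770 (BID, ENSG00000015475, minus strand) and chr2:111119378-111168447 (BCL2L11, ENSG00000153094, plus strand). BBC3 (ENSG00000105327, minus strand) is at chr19:47220822-47232766 and PMAIP1 (ENSG00000141682, plus strand) at chr18:59899948-59904306. Counts were summed per gene, so the long and short products of BCL2L1 and of MCL1 were not separated. The exons of BAD share 404 bases with GPR137 on the opposite strand, and those of BCL2L11 share 727 bases with the long non-coding RNA MIR4435-2HG on the opposite strand. Those of BCL2L1 share 1424 of their 3314 bases with the antisense gene ABALON. Because the strand setting of the counting is not given in the sources used here, reads in those stretches cannot be assigned with certainty.

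Promoter windows from 250 bases before to 50 bases after the annotated start were found in RefSeq (GRCh38.p14) for 9 of the 10 genes. Those of BAD, BAX and BCL2L11, 3 of the 4 members called in the comparison of lactate with control, are printed in full to show the sequence at their starts. Capitals mark GGGCGG (a GC box) and ACGTG (a core shared by E-boxes and hypoxia response elements) on either strand. All are written 5′ to 3′ on the strand of the gene.
BAD, chr11:64284655-64284954, minus strand: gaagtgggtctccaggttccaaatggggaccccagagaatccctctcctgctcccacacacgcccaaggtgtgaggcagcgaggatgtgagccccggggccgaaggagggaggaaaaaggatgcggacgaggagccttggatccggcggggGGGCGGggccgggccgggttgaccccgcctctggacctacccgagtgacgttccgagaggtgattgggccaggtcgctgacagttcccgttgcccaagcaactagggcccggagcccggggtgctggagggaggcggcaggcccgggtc
BAX, chr19:48954625-48954924, plus strand: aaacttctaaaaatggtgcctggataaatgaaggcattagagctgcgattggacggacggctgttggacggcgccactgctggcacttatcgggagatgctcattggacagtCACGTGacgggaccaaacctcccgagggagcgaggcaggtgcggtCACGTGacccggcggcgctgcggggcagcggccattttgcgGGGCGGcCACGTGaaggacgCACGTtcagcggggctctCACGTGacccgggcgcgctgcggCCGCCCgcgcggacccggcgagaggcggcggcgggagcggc
BCL2L11, chr2:111120664-111120963, plus strand: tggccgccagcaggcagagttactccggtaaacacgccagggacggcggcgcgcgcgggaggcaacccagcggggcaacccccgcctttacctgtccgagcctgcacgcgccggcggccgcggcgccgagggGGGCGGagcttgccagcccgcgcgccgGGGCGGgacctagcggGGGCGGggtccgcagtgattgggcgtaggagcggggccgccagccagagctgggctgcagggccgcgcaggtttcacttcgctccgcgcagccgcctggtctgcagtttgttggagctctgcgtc

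The BAD window was 68.3% G and C and held 1 GC box. The BAX window was 67.3% G and C and held 4 copies of the palindromic E-box CACGTG, each of which also contains ACGTG, besides 1 ACGTG outside them and 2 GC boxes. The BCL2L11 window was 74.7% G and C and held 3 GC boxes and, near its start, 1 copy of the forkhead motif GTAAACA, left in lower case. Among 35116 RefSeq promoter windows of the same length, searched on both strands, GGGCGG occurred in 45.0%, ACGTG in 21.4%, CACGTG in 7.26% and GTAAACA in 3.42%, and the median window was 58.7% G and C. These matches describe the letters of the windows and do not show that a factor binds there.

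Total counts per library were between 10711859 and 17173584, and the tested genes held at least 99.82% of each total. The defining epithelial keratin genes KRT8 and KRT18 stood at 737 CPM or more in every library, while the leukocyte marker PTPRC had at most 1 count and the T cell marker CD3E and the fibroblast marker DCN had none. With lactate against control, 2 of 5 tested epithelial markers were called higher, against 13.6% of all genes tested. CD68, at 1.06 ± 0.35 CPM with lactate and 0.49 ± 0.09 CPM in control, was called higher too. So was COL1A1, at 6.38 ± 1.82 CPM with lactate and 3.64 ± 0.35 CPM in control (SD, n = 4 each). CD68 and COL1A1 were the only tested genes of the leukocyte and fibroblast lists of 4 and 5 genes, and the part of such differences in the results was not tested. HEXIM1, whose transcript is known to increase when BET proteins are inhibited, averaged 135 ± 18.1 CPM with both treatments, 77.2 ± 7.64 CPM with lactate, 116 ± 24.4 CPM with I-BET762 and 89.6 ± 30.5 CPM in control (SD, n = 4 each). HEXIM1 was not called with I-BET762 against control, at a log2 fold change of 0.38 (edgeR adjusted p = 0.486). Nor was it called with both treatments against lactate, at 0.81 (adjusted p = 0.221). It was called with both treatments against control, at 0.59 (adjusted p = 0.0347). HEXIM1 went against the labels in 2 libraries: the library labelled I-BET762 replicate 2 had 89.6 CPM, and the library labelled control replicate 2 had 135 CPM. Results are given below without these 2 libraries where their call changed. Levels are given in CPM, read counts divided by library size, with sizes scaled by the trimmed mean of M values (TMM).

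Among the guardians, transcripts of MCL1 and BCL2L1 were abundant and those of BCL2 were near the detection limit. Per kilobase of exon, which allows levels of different genes to be compared, MCL1 averaged 139.8 CPM with both treatments, 122 CPM with lactate, 172 CPM with I-BET762 and 176 CPM in control. BCL2L1 averaged 131 CPM per kilobase with both treatments, 121 with lactate, 137 with I-BET762 and 121 in control. BCL2 averaged between 0.07 and 0.08 CPM per kilobase in every group, from 5 to 20 reads per library. Next in level in control came PMAIP1 at 27.5, BAX at 13.1, BID at 12.7, BAD at 11.8, BAK1 at 9.25 and BCL2L11 at 6.84 CPM per kilobase. BBC3 was low, at 0.75 CPM per kilobase in control and from 18 to 78 reads per library. In control the libraries of BAX, BID and BAD overlapped when expressed this way, as did those of BAD and BAK1 and those of BAK1 and BCL2L11, so the order of these neighbours is within the spread of the replicates.

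**Figure D1:**
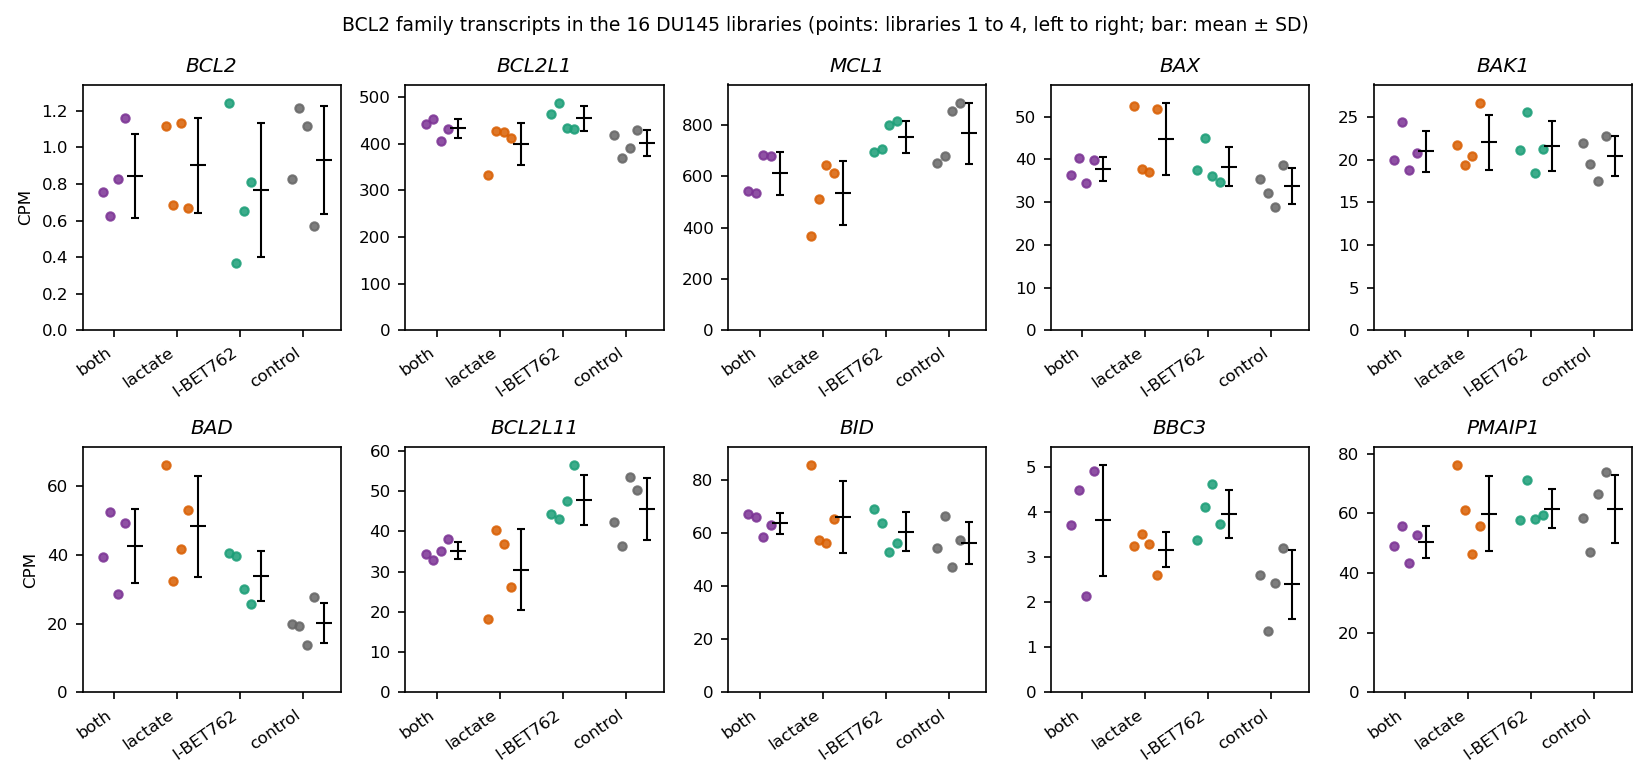
Levels of the 10 BCL2 family transcripts in CPM (vertical axes, starting at 0 and scaled per gene) in the 4 groups (horizontal axes). Points are the libraries and bars the mean ± SD of 4 replicates; all 4 BAD points with lactate lie above the highest control library, and all 4 MCL1 points with lactate lie below the lowest.

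The first question was how lactate alone moved the family. With lactate, BAD and BAX transcripts rose and MCL1 and BCL2L11 transcripts fell, so that a guardian and a BH3-only activator were lower while a BH3-only sensitizer and a pore former were higher. These were 4 of 10 members called by edgeR's quasi-likelihood test at a Benjamini-Hochberg adjusted p under 0.05 over all genes, 2 in each direction, against 23.7% of all 14690 genes tested in either direction (13.6% higher and 10.1% lower). After the correction for GC content described below, none of these 4 was called. With only lactate and control in the fit, BAD alone was called. As first fitted, the median log2 fold change was 0.05 over the 10 members and 0.03 over all genes tested. In 2 of the 10 members the libraries of the groups did not overlap, against 20.0% of all genes. Counts of this kind cannot tell fewer cells that express a gene from less RNA per cell.

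BAD, whose protein releases BAX and BAK1 by occupying BCL2 and BCL-XL, had 66.1, 32.2, 41.8 and 53.0 CPM in the lactate libraries, against 19.9, 19.4, 13.7 and 27.6 CPM in the control libraries. Every lactate library stood above every control library, with lactate replicate 2 and control replicate 4 nearest to each other. Means were 48.3 ± 14.6 CPM with lactate and 20.2 ± 5.69 CPM in control (SD, n = 4 each), a log2 fold change of 1.26 (SE 0.25, edgeR adjusted p = 0.0029). Leaving out any 1 of the 16 libraries kept BAD called, with log2 fold changes from 1.06 to 1.46. GPR137, which overlaps BAD on the opposite strand, had a log2 fold change of 0.40 in the same comparison (edgeR adjusted p = 0.0643).

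MCL1, the short-lived guardian that restrains BAK1 and BIM, had 367, 510.3, 642 and 613 CPM in the lactate libraries, against 654, 679.8, 855 and 885 CPM in the control libraries. The groups did not overlap, but the highest lactate library, replicate 3, lay close under the lowest control library, replicate 1. The means were 533 ± 125 CPM with lactate and 768 ± 119 CPM in control (SD, n = 4 each), a log2 fold change of -0.53 (SE 0.16, edgeR adjusted p = 0.0260). MCL1 was no longer called without control replicate 3, at -0.47 (adjusted p = 0.0810), nor without control replicate 4, at -0.44 (adjusted p = 0.0889).

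BCL2L11 encodes BIM, a BH3-only protein that binds all guardians and activates BAX and BAK1. It had 18.3, 40.3, 36.9 and 26.2 CPM in the lactate libraries, against 42.4, 36.3, 53.4 and 50.2 CPM in the control libraries. Lactate replicates 1 and 4 were far below every control library, while lactate replicates 2 and 3 overlapped with control replicate 2. The means were 30.4 ± 10.1 CPM with lactate and 45.6 ± 7.73 CPM in control (SD, n = 4 each), a log2 fold change of -0.58 (SE 0.19, edgeR adjusted p = 0.0380). Leaving out lactate replicate 1 gave -0.41 for BCL2L11 (adjusted p = 0.0603) and leaving out lactate replicate 4 gave -0.51 (adjusted p = 0.107). The call was also lost without control replicate 1, at -0.61 (adjusted p = 0.0563), without control replicate 3, at -0.49 (adjusted p = 0.115), and without control replicate 4, at -0.51 (adjusted p = 0.105). MIR4435-2HG, on the opposite strand, had a log2 fold change of -0.04 (SE 0.11) in this comparison.

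BAX, the cytosolic pore former, had 52.6, 37.8, 37.1 and 51.7 CPM in the lactate libraries, against 35.3, 32.2, 28.8 and 38.8 CPM in the control libraries. Lactate replicates 1 and 4 were the high ones, and lactate replicates 2 and 3 lay below control replicate 4. The means were 44.8 ± 8.50 CPM with lactate and 33.8 ± 4.29 CPM in control (SD, n = 4 each), a log2 fold change of 0.40 (SE 0.14, edgeR adjusted p = 0.0433). This call was the most fragile: BAX passed in 9 of 29 alternative fits, with adjusted p-values from 0.0186 to 0.977. Among the fits without 1 library, BAX was called when that library was control replicate 4, lactate replicate 2, lactate replicate 3 or I-BET762 replicate 2, and in no other. With both libraries that HEXIM1 set against their labels left out, BAX had a log2 fold change of 0.38 at an adjusted p of 0.0858, while BAD at 1.24 (adjusted p = 0.0119), MCL1 at -0.58 (adjusted p = 0.0385) and BCL2L11 at -0.67 (adjusted p = 0.0373) stayed called.

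Lactate replicates 1 and 4 also stood apart from replicates 2 and 3 across all genes, in how transcript level related to exon length. Spearman's correlation across genes between exon length and a gene's deviation from its mean over all libraries stood at -0.40 for lactate replicate 1 and at -0.42 for replicate 4. In lactate replicate 2 it was 0.24, and replicate 3 had 0.10. The exons of BAD span 1708 bases and those of BAX 2587, against 4371 for MCL1 and 6658 for BCL2L11. In a fit without replicates 1 and 4 of lactate, added after seeing the data, BAD stayed called with a log2 fold change of 0.88 (edgeR adjusted p = 0.0257). In that fit MCL1 had -0.41 (adjusted p = 0.0566), BCL2L11 had -0.24 (adjusted p = 0.256) and BAX had 0.15 (adjusted p = 0.422).

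The other 6 members did not pass the test with lactate. BID, which links death receptors to mitochondria once cleaved by caspase-8, had a log2 fold change of 0.23 (edgeR adjusted p = 0.223) and ranged from 47.3 to 85.7 CPM over the 16 libraries, highest in lactate replicate 1. BBC3 encodes PUMA, a BH3-only protein that binds all guardians, and had 0.39 (SE 0.26, adjusted p = 0.277) on its low counts. BAK1, the pore former resident on mitochondria, had 0.11 (SE 0.14) and stayed between 17.5 and 26.7 CPM in all 16 libraries. PMAIP1, which encodes the MCL1 binder NOXA, had -0.04 (SE 0.15) and ranged from 43.4 to 76.3 CPM. BCL2 had -0.05 (SE 0.35), the widest error of the 10. BCL2L1, which encodes the guardian BCL-XL, had -0.01 (SE 0.10), with means of 399.9 ± 45.1 CPM with lactate and 403 ± 27.8 CPM in control (SD, n = 4 each).

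The 2 abundant guardians were also set against each other. The ratio of MCL1 to BCL2L1 per kilobase was 0.84, 0.91, 1.14 and 1.13 in the lactate libraries, against 1.18, 1.40, 1.65 and 1.56 in the control libraries. Every lactate library lay below every control library, with means of 1.00 ± 0.16 with lactate and 1.45 ± 0.21 in control (SD, n = 4 each). The ratio was 0.93, 0.89, 1.28 and 1.20 with both treatments and 1.14, 1.10, 1.39 and 1.43 with I-BET762, and both groups overlapped with control. No test was run on the ratio. It was taken from values not corrected for GC content, which was 45.1% for MCL1 transcripts and 56.9% for BCL2L1 transcripts. The parts of GC content and of the exon overlap of BCL2L1 with ABALON in the ratio were not tested.

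**Figure D2:**
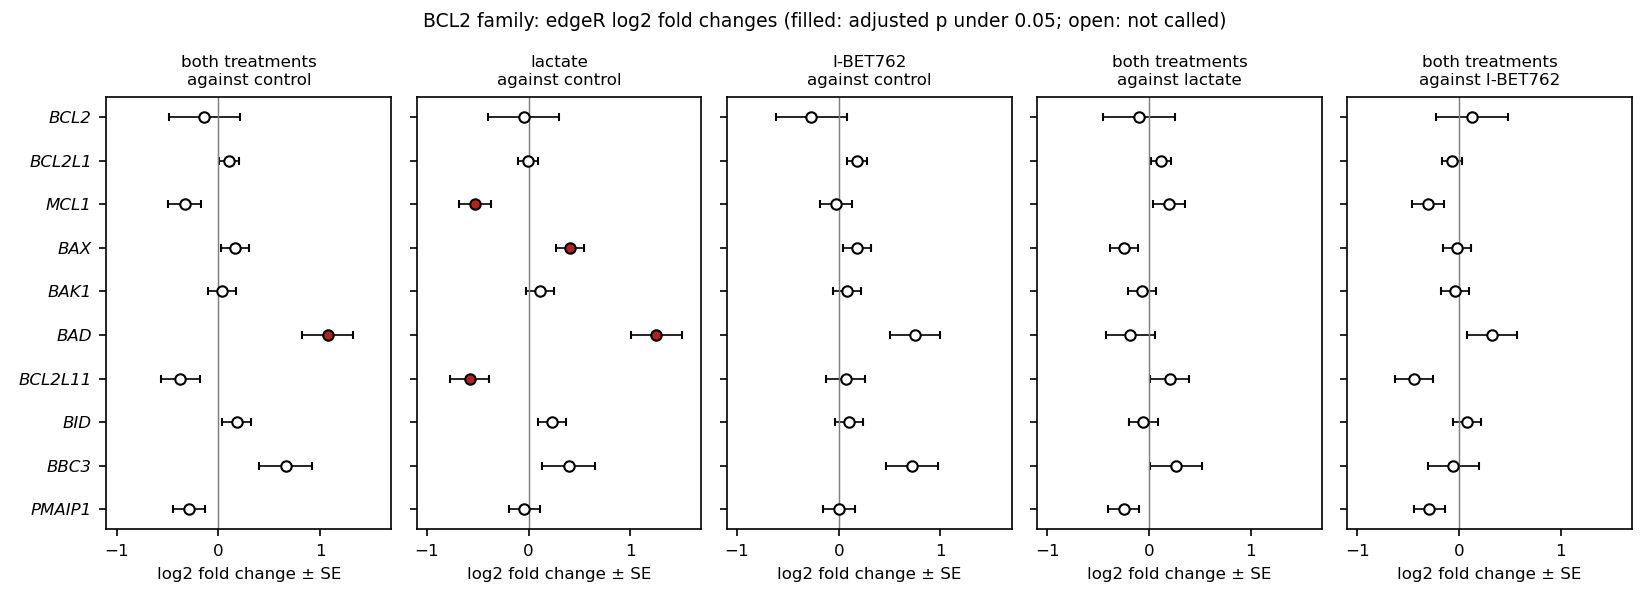
Log2 fold change (horizontal axis) of each of the 10 BCL2 family genes in the comparisons of groups, with bars of 1 SE and filled points for an edgeR adjusted p under 0.05. BAD at 1.26 with lactate and at 1.07 with both treatments lies farthest from 0 among the filled points.

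The GC content of transcripts moved with the groups. Spearman's correlation across genes between GC content and a gene's deviation from its mean ran from -0.02 to 0.32 in the lactate libraries and from -0.55 to -0.30 in the control libraries. It ran from 0.06 to 0.43 with both treatments and from -0.18 to 0.17 with I-BET762. The median log2 fold change of all tested genes with lactate was -0.16 in the bin of genes centred on 38.75% GC and 0.80 in the bin centred on 66.25% GC. BAD, with 66.3% GC, falls in the higher of these bins, BAX has 58.9%, and MCL1 and BCL2L11 have 45.1% and 45.7%. BBC3 has the highest content of the members, at 69.7%.

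When each library's trend on GC content was removed, none of the 4 members stayed under the threshold, and none changed direction. BAD had a corrected log2 fold change of 0.52 (edgeR adjusted p = 0.0561) and BAX of 0.13 (adjusted p = 0.505). MCL1 had -0.42 (adjusted p = 0.0859) and BCL2L11 had -0.47 (adjusted p = 0.0923), each closer to its uncorrected value. BBC3 had -0.61 corrected and 0.39 uncorrected, opposite in sign, and passed the test in neither fit. With exon length removed as well, BAD had 0.29 (adjusted p = 0.0673), MCL1 -0.41 (adjusted p = 0.0712) and BCL2L11 -0.41 (adjusted p = 0.0828), while BAX was at -0.0042 (adjusted p = 0.977). Over all genes, 3486 were called without the correction and 1973 with the correction for GC content.

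**Figure D3:**
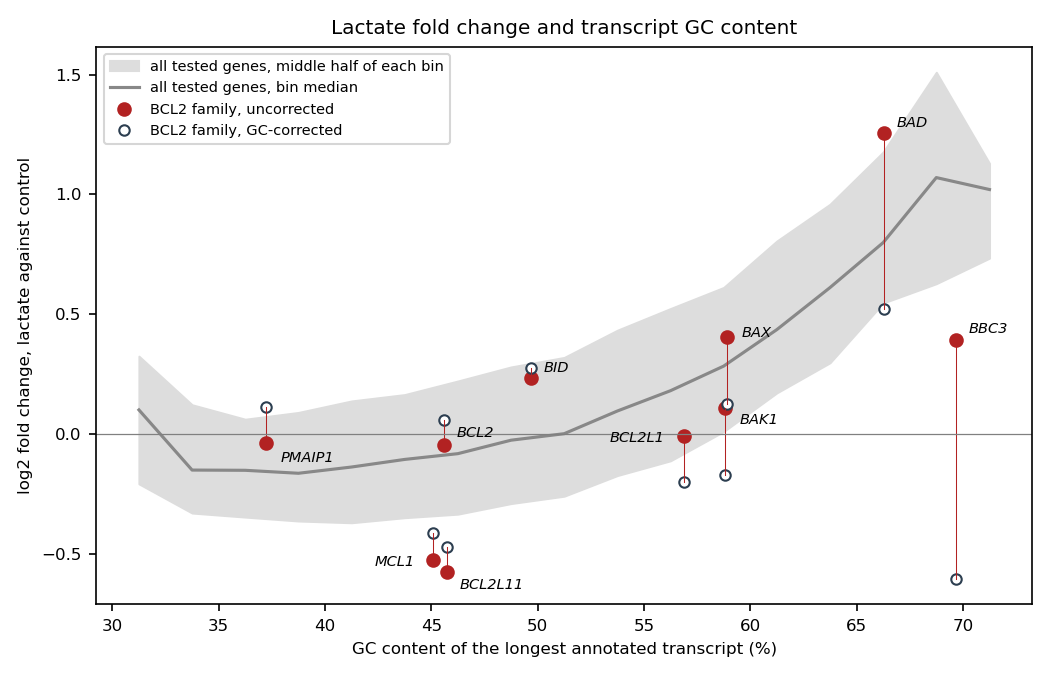
Log2 fold change of lactate against control (vertical axis) against the GC content of the longest annotated transcript in percent (horizontal axis). The line and band are the median and the middle range between quartiles of all tested genes per bin of GC content; filled points are the BCL2 family uncorrected and open points after the GC correction, where BAD moves to 0.52 and BBC3 to -0.61.

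The next question was what I-BET762 alone did to the family, and no member passed the test. The call rate over all genes was low too, at 0.442%, all of it higher in I-BET762. Without both libraries that HEXIM1 set against their labels, edgeR called 9 of 14690 genes, 5 higher and 4 lower, and no member. At an unadjusted p under 0.05 with all 16 libraries, edgeR gave 2 of 10 members, BAD and BBC3, against 11.4% of all genes. DESeq2 called no member and 528 of all 14690 genes. BAD had 40.5, 39.6, 29.9 and 25.6 CPM with I-BET762, against 19.9, 19.4, 13.7 and 27.6 CPM in control. I-BET762 replicate 4 lay below control replicate 4 and the other I-BET762 libraries lay above all controls. The log2 fold change of BAD was 0.75 (SE 0.25, edgeR adjusted p = 0.161), and 0.10 after the correction for GC content. GPR137, on the strand opposite BAD, had 0.60 (adjusted p = 0.0720).

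BBC3 had 3.39, 4.11, 4.63 and 3.73 CPM with I-BET762, against 2.61, 1.37, 2.43 and 3.19 CPM in control. The groups did not overlap, and the log2 fold change of BBC3 was 0.72 (SE 0.26, edgeR adjusted p = 0.215), and -0.13 after the correction for GC content. BCL2L1 had 464, 488, 435 and 431 CPM with I-BET762, against 419.8, 369, 392 and 430.0 CPM in control. Its groups were also separate, though I-BET762 replicate 4 and control replicate 4 were nearly equal, and the log2 fold change of BCL2L1 was 0.18 (SE 0.10, adjusted p = 0.577). These were the 2 members without overlap, against 10.8% of all genes. MCL1 averaged 754 ± 61.8 CPM with I-BET762 and 768 ± 119 CPM in control (SD, n = 4 each), a log2 fold change of -0.03 (SE 0.16, adjusted p = 0.979). The remaining 6 members had log2 fold changes between -0.27 (BCL2) and 0.18 (BAX).

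With lactate and I-BET762 together, BAD was the 1 member of 10 called against control, against 20.7% of all genes. It had 39.3, 52.5, 28.7 and 49.3 CPM with both treatments, against 19.9, 19.4, 13.7 and 27.6 CPM in control. The groups did not overlap, although replicate 3 with both treatments and control replicate 4 were close. The means were 42.4 ± 10.7 CPM with both treatments and 20.2 ± 5.69 CPM in control (SD, n = 4 each), a log2 fold change of 1.07 (SE 0.25, edgeR adjusted p = 0.0062). BAD was also the 1 member without overlap, against 31.2% of all genes. After the correction for GC content the log2 fold change of BAD was 0.19 (adjusted p = 0.551). GPR137 had a log2 fold change of 0.46 at an adjusted p of 0.0425 in this comparison.

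Other members had smaller differences from control under both treatments and did not pass. BBC3 had a log2 fold change of 0.66 (SE 0.26, edgeR adjusted p = 0.0798), MCL1 of -0.33 (SE 0.16, adjusted p = 0.155) and BCL2L11 of -0.37 (SE 0.19, adjusted p = 0.178). Those of BCL2, BCL2L1, BAX, BAK1, BID and PMAIP1 lay between -0.29 (PMAIP1) and 0.18 (BID). After the correction for GC content BBC3 had -0.53 (adjusted p = 0.204), opposite in sign to its uncorrected value. MIR4435-2HG, which overlaps BCL2L11 on the opposite strand, was called under both treatments, at -0.39 (adjusted p = 0.0249). MCL1 averaged 611 ± 83.1 CPM with both treatments and 768 ± 119 CPM in control (SD, n = 4 each). Without lactate replicate 1, a library of neither group, MCL1 (adjusted p = 0.0349) and BCL2L11 (adjusted p = 0.0488) were called as well; the model shares the spread of all groups. BBC3 was called without control replicate 4, at 0.86 (adjusted p = 0.0494), and without replicate 3 of both treatments, at 0.86 (adjusted p = 0.0194). The comparisons of lactate, of I-BET762 and of both treatments with control share the control libraries, so their values for a member are not independent.

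Adding lactate to cells given I-BET762 called no member, against 4.90% of all genes. At an unadjusted p under 0.05, edgeR gave 1 of 10 members, BCL2L11, against 19.6% of all genes. DESeq2 called no member and 1250 of all 14690 genes. BCL2L11 had 34.4, 32.9, 35.2 and 38.0 CPM with both treatments, against 44.3, 43.0, 47.5 and 56.5 CPM with I-BET762. All libraries with both treatments lay below all libraries with I-BET762, and the log2 fold change of BCL2L11 was -0.44 (SE 0.19, edgeR adjusted p = 0.201). With only the 2 groups in the fit, BCL2L11 was called at -0.43 (adjusted p = 0.0124), and without lactate replicate 1 it was called at -0.45 (adjusted p = 0.0494).

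MCL1 and PMAIP1 also separated the groups, giving 3 members without overlap, all lower with both treatments, against 11.3% of all genes in that direction. MCL1 had 544, 534, 685 and 681 CPM with both treatments, against 696, 706, 799.8 and 814 CPM with I-BET762, with a log2 fold change of -0.30 (SE 0.16, edgeR adjusted p = 0.315). PMAIP1 had 49.2, 55.9, 43.4 and 52.8 CPM with both treatments, against 57.7, 71.3, 58.1 and 59.4 CPM with I-BET762, with a log2 fold change of -0.29 (SE 0.15, adjusted p = 0.318). For MCL1 and PMAIP1 the gap between the groups was small beside the spread within them. BAD had a log2 fold change of 0.32 at an adjusted p of 0.506 in this comparison. Those of BCL2, BCL2L1, BAX, BAK1, BID and BBC3 lay between -0.07 (BCL2L1) and 0.13 (BCL2).

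Adding I-BET762 to cells given lactate called no member by edgeR, and none of the 14690 genes was called by edgeR either. Without both libraries that HEXIM1 set against their labels, edgeR called 60 of 14690 genes, 11 higher and 49 lower, and no member. At an unadjusted p under 0.05 with all 16 libraries, edgeR gave 0 of 10 members, against 15.6% of all genes. DESeq2 called no member and 90 of all 14690 genes. No member was free of overlap, against 7.60% of all genes. The log2 fold changes lay between -0.25 (PMAIP1) and 0.27 (BBC3). MCL1 averaged 611 ± 83.1 CPM with both treatments and 533 ± 125 CPM with lactate (SD, n = 4 each), a log2 fold change of 0.20 (SE 0.16, adjusted p = 0.523). BAD averaged 42.4 ± 10.7 CPM with both treatments and 48.3 ± 14.6 CPM with lactate, a log2 fold change of -0.18 (SE 0.24, adjusted p = 0.702).

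Whether the response to lactate differed in the presence of the inhibitor was tested as an interaction. No member and no gene passed at an adjusted p under 0.05. At an unadjusted p under 0.05, edgeR gave 2 of 10 members, BAD at -0.93 (SE 0.35, adjusted p = 0.700) and BAX at -0.42 (SE 0.20, adjusted p = 0.700), against 6.09% of all genes. By edgeR, the members other than BAD and BAX lay between -0.45 (BBC3) and 0.22 (MCL1). DESeq2 called no member and 0 of all 14690 genes. For BAD the log2 fold change of lactate was 0.32 in the presence of I-BET762 and 1.26 in its absence, both without a correction for GC content. Over 28 alternative fits the interaction of BAD ran from -1.14 to -0.21 and was called in 0.

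**Figure D4:**
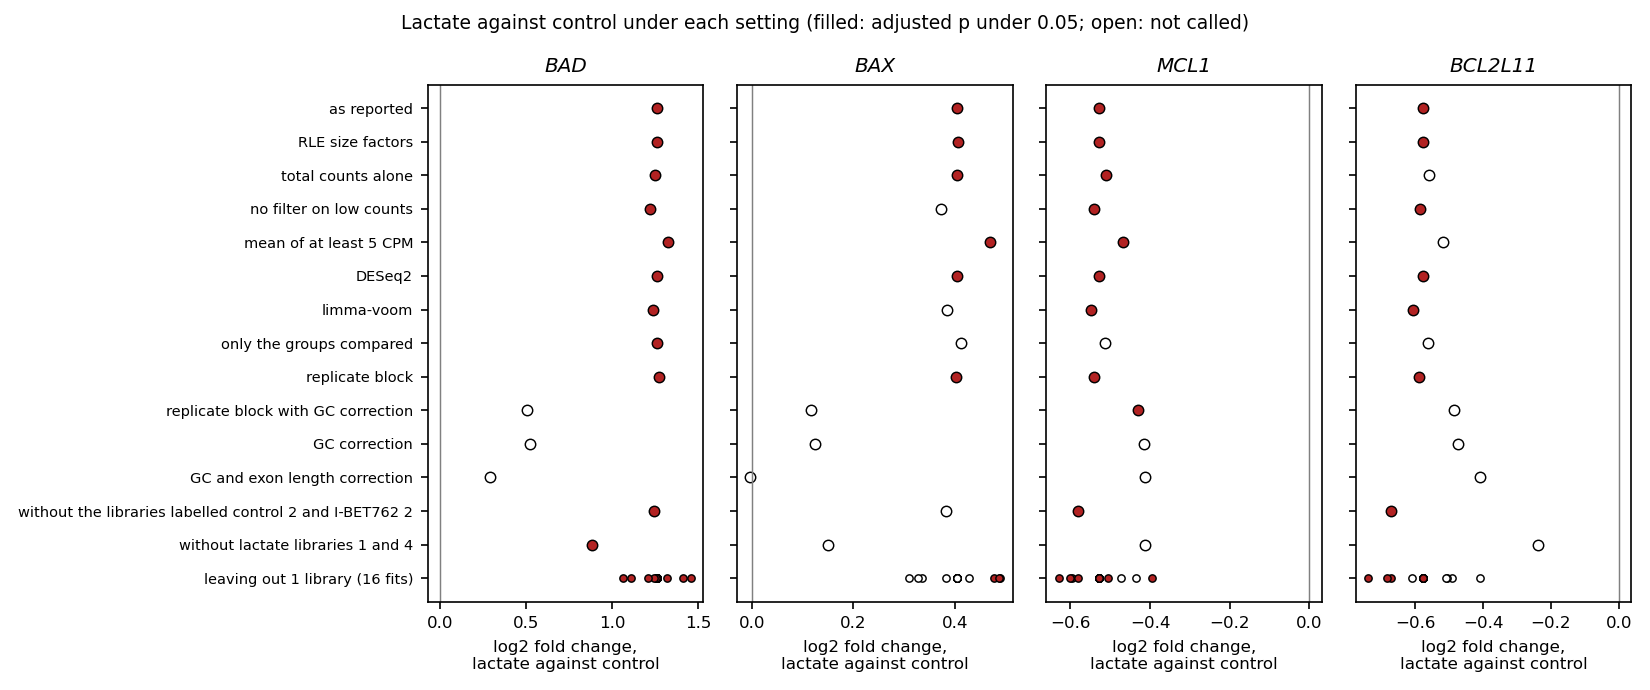
Log2 fold change of lactate against control (horizontal axes) for the 4 members called, under each way of fitting the data (rows); filled points have an adjusted p under 0.05. BAD stays filled in all fits except those with a correction for GC content, whereas BAX is open in most.

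Elsewhere in the pathway the calls with lactate were spread over both directions. Of 56 tested genes on the 5 lists of other apoptosis genes, 6 rose and 9 fell, which is 15 of 56, against 23.7% of all genes. Among 10 tested relatives in the BCL2 family, 2 rose and 1 fell. BOK, a pore former that guardians do not restrain well, averaged 28.9 ± 4.10 CPM with lactate and 16.1 ± 3.81 CPM in control, a log2 fold change of 0.85 (edgeR adjusted p = 0.0022). BIK, a BH3-only protein of the endoplasmic reticulum, had a log2 fold change of 0.99 at an adjusted p of 0.0057, and BNIP2, an interactor of BCL2, had -0.37 (adjusted p = 0.0046).

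Among 16 genes of the apoptosome, caspases and mitochondrial release, 2 rose and 4 fell. APAF1, the scaffold of the apoptosome, averaged 26.6 ± 7.17 CPM with lactate and 43.7 ± 4.40 CPM in control, a log2 fold change of -0.71 (edgeR adjusted p = 0.0046). HTRA2, a mitochondrial protease that cleaves inhibitor of apoptosis proteins once released, had 0.67 (adjusted p = 0.0032), and ENDOG, a mitochondrial nuclease, had 1.37 (adjusted p = 0.0076). Among 5 tested inhibitor of apoptosis genes, none rose and 2 fell, BIRC2 at -0.33 (adjusted p = 0.0212) and BIRC3 at -0.45 (adjusted p = 0.0215), both of which encode ubiquitin ligases of the TNF receptor complex.

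Among 12 tested death receptor genes and adaptors, 2 rose and 1 fell. The adaptor gene TRADD had a log2 fold change of 0.91 (edgeR adjusted p = 0.0049) and the adaptor gene FADD of 0.41 (adjusted p = 0.0163), while the TRAIL receptor gene TNFRSF10B had -0.46 (adjusted p = 0.0239). Among 13 tested regulators of BCL2 family transcription or turnover, none rose and 1 fell, MAPK8, which encodes the stress kinase JNK1, at -0.63 (adjusted p = 0.0055). After the correction for GC content 5 of these 15 genes were still called. These were BIK at 0.83 (adjusted p = 0.0188), APAF1 at -0.57 (adjusted p = 0.0226), CASP2, a caspase gene, at -0.56 (adjusted p = 0.0392), TNFRSF10B at -0.43 (adjusted p = 0.0403) and MAPK8 at -0.46 (adjusted p = 0.0412). BOK, at 0.10 (adjusted p = 0.655), and TRADD, at 0.22 (adjusted p = 0.494), were among those no longer called. In that corrected fit edgeR called 2 of the 56 listed genes higher and 5 lower, and 1973 of all 14690 genes in either direction. Without lactate replicates 1 and 4, 11 of the 15 were called. ENDOG, at 0.72 (adjusted p = 0.0532), FADD, at 0.20 (adjusted p = 0.117), and TNFRSF10B, at -0.23 (adjusted p = 0.0514), were among those no longer called, while HTRA2 was called at 0.35 (adjusted p = 0.0118) and APAF1 at -0.43 (adjusted p = 0.0205). With only lactate and control in the fit, 5 of the 15 were called, all of them higher. Over all 14690 genes that fit called 896, of which 786 were higher and 110 lower.

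Under both treatments, 12 of the 56 genes were called against control, 6 higher and 6 lower, against 20.7% of all genes. BOK had a log2 fold change of 0.99 (edgeR adjusted p = 0.0006), TRADD of 0.98 (adjusted p = 0.0027) and BIRC3 of -0.75 (adjusted p = 0.0012). BIRC3 averaged 136 ± 7.85 CPM with both treatments and 228 ± 34.1 CPM in control (SD, n = 4 each). CASP9, the initiator caspase that APAF1 activates, had -0.51 (adjusted p = 0.0282) against control. After the correction for GC content 3 of the 12 were still called, among them BIRC3 at -0.57 (adjusted p = 0.0048) and CASP9 at -0.56 (adjusted p = 0.0229), whereas BOK was at 0.14 (adjusted p = 0.620) and TRADD at 0.18 (adjusted p = 0.657). In that corrected fit edgeR called 1 of the 56 genes higher and 4 lower, and 1614 of all 14690 genes in either direction. Uncorrected, 8 of the 12 were called when both libraries that HEXIM1 set against their labels were left out.

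Against I-BET762 alone, cells with both treatments had lower BIRC3, at -0.52 (edgeR adjusted p = 0.0312), and lower CASP9, at -0.63 (adjusted p = 0.0273). No other of the 56 genes of the lists was called, and the share over all genes was 4.90%. With I-BET762 against control no gene of the lists was called, against 0.442% of all genes. With both treatments against lactate no gene of the lists was called, against 0% of all genes.

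**Figure D5:**
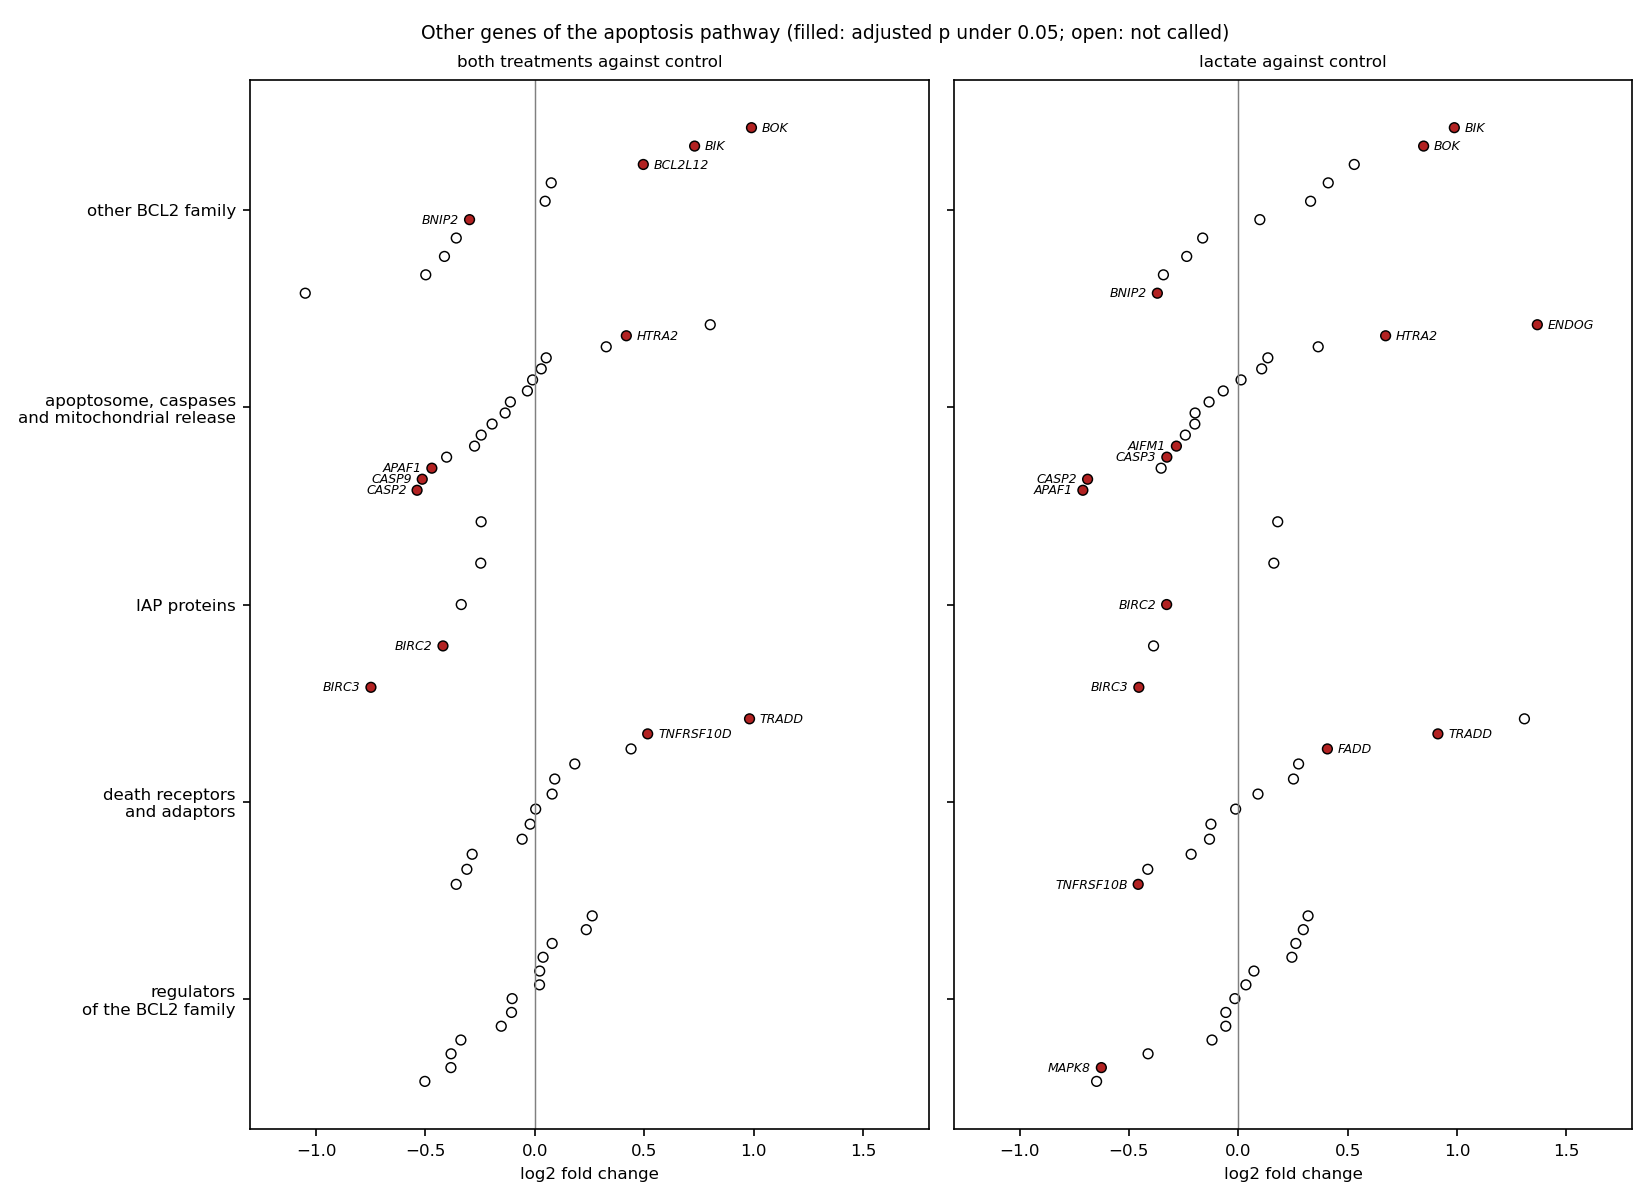
Log2 fold change (horizontal axes) of the 56 tested genes on the 5 lists of other apoptosis genes (rows of points by list), for both treatments against control on the left and lactate against control on the right. Filled points have an edgeR adjusted p under 0.05 and are named; 12 are filled on the left and 15 on the right.

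Genes outside the family with a library-by-library pattern closest to each called member were sought among 10672 genes, by the root mean square difference of log2 CPM centred on each gene's mean over the 16 libraries. For BAD these were NUDT22 (a difference of 0.12 on the log2 scale), MRPL55 (0.13) and GUK1 (0.14), while BAD itself deviated from its own mean by 0.59. NUDT22, MRPL55 and GUK1 had GC contents of 60.1%, 59.9% and 61.2%, and log2 fold changes of 1.22, 1.14 and 1.47 with lactate. For MCL1 they were NCBP1, SIKE1 and C9orf64, each at 0.12 beside a deviation of 0.31 for MCL1 itself, with log2 fold changes of -0.59, -0.54 and -0.44 with lactate. For BAX they were CHMP4B, ZNRF1 and GRHPR, each at 0.09 beside 0.22 for BAX. For BCL2L11 they were DDX3Y, MBP and SUPT20H, each at 0.12 beside 0.39 for BCL2L11. All these genes were picked for likeness over the same 16 libraries, so fold changes near the member's follow from the choice.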

How the data were processed

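Libraries were made from polyadenylated RNA with a strand-marking kit and read as single ends, per the labels' protocols. The table the authors deposited holds raw counts of reads for each Ensembl gene, 1 column per library. The submitters' processing notes name STAR 2.6.1c, DESeq, GRCh38.p12 and hg38. How reads were assigned to genes (program, strand, annotation) is not given in the sources used here. From these counts, genes were kept by filterByExpr (minimum count 10, minimum total 15). The 4 group means were fitted over all 16 libraries with TMM scaling in edgeR 4.0.16 (R 4.3.3), leaving 12 residual degrees of freedom; the common biological coefficient of variation was 0.183. Contrasts were tested two-sided by quasi-likelihood, and p-values were adjusted by Benjamini-Hochberg over 14690 genes. The p-values measure the spread between the libraries. Exon lengths, GC contents and coordinates are from GENCODE on GRCh38; a GC value was known for 99.4% of tested genes, and the GC correction used a lowess fit per library (span 0.3) as an offset. The fit as reported was checked on simulated counts without trends on GC content or exon length, so that check does not cover such trends. Alternatives were RLE or total-count scaling, other filters, DESeq2 1.42.0, limma-voom (3.58.1), only the groups compared, replicate number as a block, GC and exon length corrections, and leaving out libraries. All members were tested in every comparison. Beyond lactate against control, the members not described singly were given as a range of fold changes. Also named were up to 3 genes of smallest p per list. For each called member, the 3 genes of mean at least 5 CPM with the most similar pattern were named too. CASP2 in the lactate comparison falls outside this and was named after its values were seen, as were the genes overlapping BAD, BCL2L1 and BCL2L11. The members and the lists were chosen with earlier results of these data known.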

Additional observations from a re-analysis of the deposited data

Results flagged for a closer look

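Of 40 sets of 4 libraries examined (10 members in 4 groups), 2 held a library far from the other 3, and chance flags about 1 in 20 such sets. BCL2L1 in the lactate group had 1 low library, replicate 1, at 333 CPM, with the others at 428, 426 and 413 CPM. The gap to the nearest was 0.842 of the range. That library also had the lowest total count, 10711859, and the lowest level of MCL1 and BCL2L11 of all 16 libraries; without it the log2 fold change of BCL2L1 with lactate was 0.06 (edgeR adjusted p = 0.601). PMAIP1 in the I-BET762 group had 1 high library, replicate 2, at 71.3 CPM, with the others at 57.7, 58.1 and 59.4 CPM, a gap of 0.871 of the range. It is the same library whose HEXIM1 level went against its label. What sets these libraries apart was not tested.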

How the results depend on the processing

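With lactate against control, 4 members were called as reported. The number was 1 with only the groups compared (BAD), 0 with the GC correction, 0 with GC and exon length correction, 1 with the replicate block and GC correction together (MCL1, adjusted p = 0.0168), 1 without lactate replicates 1 and 4 (BAD; chosen after seeing the data), and 1 to 4 when 1 library was left out. The calls over all 14690 genes moved too. They were 3486 as reported and, in the same order, 896, 1973, 2242, 2389, 2967, and 1849 to 4932 when 1 library was left out. BAX turned to -0.0042 on the log2 scale with the GC and exon length correction, the 1 reversal of a called value. I-BET762 against control gave 0 members as reported, 1 with no filter on low counts (BAD, adjusted p = 0.0147) and 0 in every fit without 1 library. Over all genes it called 65 of 14690 as reported and 492 of 31234 with no filter. Both treatments against I-BET762 gave 0 as reported, 1 with only the groups compared, 1 without lactate replicates 1 and 4, and 0 to 1 without 1 library. The calls over all genes, in the same order, were 720, 2490, 2250, and 283 to 1681. Both treatments against control gave 1 as reported, 2 with only the groups compared (BAD and BCL2L11), 2 with the replicate block (BAD, and MCL1 at adjusted p = 0.0317), 0 with the GC correction, 0 with GC and exon length correction, 0 with the replicate block and GC correction, 3 without lactate replicates 1 and 4, and 1 to 3 without 1 library. Over all genes the calls, in the same order, were 3045, 4842, 3549, 1614, 2027, 1999, 5453, and 1708 to 4645. Both treatments against lactate and the interaction gave 0 in every fit that was run. The cause of these shifts was not tested.

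Equal replicate numbers were not shown to pair libraries: of 24 same-numbered pairs, 16 had deviations correlated above 0.1 (-0.26 to 0.42), and 7 of 16 libraries were most like one of their own number. The replicate block left lactate against control at 4 members called. Over single members and comparisons, 1551 alternative values kept their direction and side of the threshold, 111 changed sign while passing the test in neither fit (BBC3 with the GC correction among them), 43 lost the call and 12 gained one. BCL2 and BBC3 had no value under the 5 CPM filter, and BCL2, with 5 to 20 reads per library, was measured too thinly to show a moderate change.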
